A study of Mus musculus with 6 samples.

Results

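The dynein motors and their cofactor dynactin were compared between the cochlear sensory epithelium of Kir2.1-OE mice and that of littermate controls. The genes were chosen by name, as every row of the count files whose symbol begins with Dync, Dynl, Dnah, Dnal, Dnaic or Dctn, which gave 38 of 24411 genes. They comprise 5 genes of the cytoplasmic dynein 1 core, 2 of cytoplasmic dynein 2, 9 dynein light chains, 6 dynactin subunits, 11 axonemal heavy chains and 5 axonemal intermediate and light chains. RNA was sequenced at P9, before the onset of hearing, from 3 pools per genotype, each of 8 cochleae from 4 mice. Both genotypes were on a C57BL/6N background and carried Otof rtTA in the heterozygous state. Both were exposed to doxycycline (DOX), which their mothers received in the drinking water from conception on. Kir2.1-OE mice also carried 1 copy of tetO-Kir2.1-IRES-tau-lacZ, so that DOX switched on the inward rectifier potassium channel Kir2.1 together with a tau-lacZ reporter, and the controls lacked that transgene. The rtTA activator is driven by Otof, a gene mainly of inner hair cells, whereas the dissected epithelium also holds other cell types, so each value is an average over all of them. In such bulk tissue, fewer cells of a type and less RNA per cell cannot be told apart.

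Dyneins are ATP-driven motors that walk towards the minus end of microtubules. Cytoplasmic dynein 1 is built on a pair of heavy chains (Dync1h1) that hold intermediate, light intermediate and light chains, and it carries cargo towards the cell centre when dynactin and an adaptor protein engage it. Cytoplasmic dynein 2 (Dync2h1) brings intraflagellar transport trains back from the tip of a cilium, and axonemal dyneins bend motile cilia and flagella. Cochlear hair cells bear a kinocilium, a single true cilium, during development, and their cell bodies hold a dense array of microtubules.

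The promoters of a few members are shown because they belong to the heavy chain, dynactin, ciliary motor and light chain genes described first below. Regulatory factor X (RFX) proteins, which drive cilium genes, bind the X-box, and capitals mark GTTGCC, 1 arm of the X-box, or the same letters read from the other strand, GGCAAC. Each window runs 5′ to 3′ from 250 bases before to 50 bases after a RefSeq start site on GRCm38.p6: Dync1h1 at chr12:110601145-110601444 on the plus strand, Dctn1 at chr6:83179339-83179638 on the plus strand, Dync2h1 at chr9:7177009-7177308 on the minus strand and Dynlrb2 at chr8:116504765-116505064 on the plus strand.
Dync1h1: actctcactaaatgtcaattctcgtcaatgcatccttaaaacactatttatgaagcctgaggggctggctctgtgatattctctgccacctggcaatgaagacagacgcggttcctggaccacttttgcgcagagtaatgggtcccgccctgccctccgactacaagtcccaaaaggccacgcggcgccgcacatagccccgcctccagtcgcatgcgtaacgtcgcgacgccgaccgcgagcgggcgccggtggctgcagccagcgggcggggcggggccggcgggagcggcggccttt
Dctn1: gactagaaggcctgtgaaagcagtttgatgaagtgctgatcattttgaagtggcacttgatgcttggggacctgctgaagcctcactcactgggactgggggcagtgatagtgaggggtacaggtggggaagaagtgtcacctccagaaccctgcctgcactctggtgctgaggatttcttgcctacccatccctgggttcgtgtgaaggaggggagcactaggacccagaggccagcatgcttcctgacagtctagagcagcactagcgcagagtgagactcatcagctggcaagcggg
Dync2h1: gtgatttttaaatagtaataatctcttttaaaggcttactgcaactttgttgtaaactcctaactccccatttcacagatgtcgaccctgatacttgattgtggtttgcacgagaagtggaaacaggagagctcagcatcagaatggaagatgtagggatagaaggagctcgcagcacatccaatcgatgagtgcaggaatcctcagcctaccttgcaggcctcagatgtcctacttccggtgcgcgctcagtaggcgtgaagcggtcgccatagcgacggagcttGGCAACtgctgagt
Dynlrb2: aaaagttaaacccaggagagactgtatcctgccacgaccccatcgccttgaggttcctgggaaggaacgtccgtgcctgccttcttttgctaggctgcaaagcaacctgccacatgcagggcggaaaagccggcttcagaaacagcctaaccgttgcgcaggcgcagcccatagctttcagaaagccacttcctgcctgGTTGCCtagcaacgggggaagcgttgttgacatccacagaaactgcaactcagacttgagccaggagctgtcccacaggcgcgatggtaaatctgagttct

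The marked letters lay 36 bases after the start in Dync2h1 and 51 bases before it in Dynlrb2, and they were not found in the windows shown for Dync1h1 and Dctn1. RefSeq windows were matched by symbol for 31 members, and 9 of these (29.0%) held them in at least 1 window, against 14.1% of all 27025 genes in the promoter table. The 9 were Dync1i1, Dync1i2, Dync2h1, Dynll1, Dynlrb2, Dnah7a, Dnah7b, Dnah10 and Dnaic2. Among the 8 members called below, 3 held it, namely Dync2h1 and Dnah7b, which were higher, and Dynlrb2, which was lower. In Dynlrb2 the letters agcaac follow the marked ones after 1 base, and they are unmarked because they differ from GGCAAC in 1 letter. Another RefSeq window of Dctn1, at chr6:83185696-83185995, did not hold the marked letters either. Both Dctn1 windows lie inside the gene as placed on mm10 below. A match of letters is a description of the window only.

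The libraries held between 35430940 and 41205047 reads assigned to genes. Kcnj2, the gene of Kir2.1, had 3612, 3813 and 2213 normalized counts in the Kir2.1-OE pools and 236, 228 and 226 in the controls. The gene was thus higher in every pool labelled Kir2.1-OE. A normalized count is the estimated number of reads of a gene scaled by the effective library size, and level per length is given as RPKM, which divides the reads by the kilobases of the longest annotated transcript and by library depth. By the rule given below, 15.5% of all genes tested were called higher and 5.08% lower. Of the hair cell markers, 6 of 12 were called higher, and Pou4f3, Gfi1, Slc17a8, Ocm, Tmc1 and Espn were not called. The summed normalized counts of the 12 ranged from 54996 to 59048 in Kir2.1-OE and from 45472 to 50319 in controls. Of the spiral ganglion neuron markers, 6 of 10 were called higher, with sums of 37642, 24367 and 58207 in Kir2.1-OE and 17363, 20031 and 12682 in controls. Of the glial markers, 4 of 8 were called higher, with sums of 371814 to 490484 against 269428 to 340858, and no marker of these 3 lists was at 0 in every library. Of the supporting cell markers 2 of 10 were called higher and 2 lower, with sums of 263534 to 279126 against 290142 to 381771. Tectb, 1 of the 2 called lower, held a large part of these sums. Its normalized counts were 128742, 142704 and 149305 in Kir2.1-OE and 282462, 216282 and 180813 in controls. Of the 10 supporting cell markers 5 had positive and 5 negative log2 fold changes. Of the fibrocyte and mesenchyme markers 2 of 8 were called higher, with sums of 507099 to 596594 against 399821 to 553042, and of the erythrocyte markers 3 of 6 were called lower, with sums of 10868 to 13806 against 17936 to 44724. Of the 8 macrophage markers 2 were higher and 1 lower by the adjusted p, at folds under the limit used below. By the adjusted p alone, 27.3% of all genes were higher and 23.5% lower. With the length and GC offsets described below, 3 hair cell, 6 spiral ganglion neuron and 5 glial markers were called higher, where 7.21% of all genes were. Of the supporting cell markers 1 was then called higher and 1 lower, of the fibrocyte and mesenchyme markers 1 higher, and of the erythrocyte markers 0. The sums of the hair cell, spiral ganglion neuron, glial, supporting cell and erythrocyte markers did not overlap between genotypes. Those of the fibrocyte and mesenchyme markers did, as did those of the macrophage markers (7669 to 8287 in Kir2.1-OE and 7267 to 7793 in controls). The part of these markers in the results below was not tested.

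Of the 38 genes, 33 had enough reads to be tested among 15303 genes. A gene was called when edgeR's quasi-likelihood test gave a Benjamini-Hochberg adjusted p under 0.05 and the fold change was above 1.5. By this rule 5 members (15.2% of those tested) were higher in Kir2.1-OE (Dync1h1, Dctn1, Dync2h1, Dnah11 and Dnah7b), where 15.5% of all genes tested were called higher, and 3 (9.09%) were lower (Dynlrb2, Dynlt1c and Dnah1), where 5.08% of all genes tested were called lower. The share called higher is that of genes in general, and the share called lower rests on 3 genes. The members tested had a median of -0.08 on the log2 scale and all genes tested a median of 0.01. With the adjusted p alone, 8 members (24.2%) were higher and 9 (27.3%) lower, against 27.3% and 23.5% of all genes. The normalized counts of the 3 Kir2.1-OE pools lay wholly above those of the 3 controls for 9 members (27.3%) and wholly below for 12 (36.4%), against 31.7% and 29.9% of all genes. The members that differed most were split by role, with heavy chains and the largest dynactin subunit on the higher side and light chains on the lower side, apart from the heavy chain Dnah1, which was lower. Role goes with transcript length in this family, and the trend with length is described below. With the length and GC offsets the 5 members called higher were no longer called. Of the 3 called lower, Dynlrb2 was lost, and Dynlt1c and Dnah1 were still called.

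Gene positions are given on mm10. Dync1h1 (chr12:110601452-110666945, plus strand), the only heavy chain of cytoplasmic dynein 1, had 12605, 13412 and 11554 normalized counts in Kir2.1-OE and 4973, 5362 and 3864 in controls. Every Kir2.1-OE pool was above every control pool, and the lowest Kir2.1-OE value was above the highest control value by more than the spread within either group. The mean was 12524 ± 931 against 4733 ± 777 (SD, n = 3 each), which is 23.2 against 8.80 RPKM. The fold change was 2.65, or 1.40 on the log2 scale (SE 0.12, adjusted p = 0.000129, edgeR's quasi-likelihood test). Leaving out each library in turn gave log2 fold changes between 1.277 and 1.503. A stricter test against a log2 fold change of 0.6 still called Dync1h1 (adjusted p = 0.00224) and, of the other members, Dctn1 alone (adjusted p = 0.0177), where it called 5.44% of all genes higher. Once offsets for transcript length and GC content entered the fit (described with the length of the transcripts below), the fold change was 1.39 and Dync1h1 was not called.

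The chains that sit on the Dync1h1 tail had log2 fold changes between -0.13 and 0.53 from the counts as tested. With the offsets Dync1li1 (0.60) stood above Dync1h1 (0.47), and differences between these genes were not tested. Dync1i1, the intermediate chain most abundant in neurons, had 3630, 3246 and 4357 normalized counts in Kir2.1-OE and 3262, 3412 and 2961 in controls. The groups overlapped, and its log2 fold change of 0.22 did not pass the test (adjusted p = 0.115). Within each genotype the pools ranked by Dync1i1 as they ranked by the summed spiral ganglion neuron markers given above. Ranks of so few pools can match by chance, and the match is given for Dync1i1 only. A link between Dync1i1 and neuron content was not tested. Dync1i2, the intermediate chain found in most tissues, had a log2 fold change of -0.13 (adjusted p = 0.154), with 4978 to 5453 normalized counts in Kir2.1-OE just below the 5489 to 5870 of controls.

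The light intermediate chains, which bind adaptors and so link the motor to cargo, were both higher at the adjusted p but under the fold limit. Dync1li1 had 1928, 1963 and 2158 normalized counts in Kir2.1-OE and 1522, 1528 and 1380 in controls, for a log2 fold change of 0.45 (adjusted p = 0.00137). Dync1li2 had 6040, 5557 and 5875 normalized counts against 4155, 4057 and 3874, a log2 fold change of 0.53 (adjusted p = 0.000344). Neither gene overlapped between genotypes. Per length, Dync1li2 stood at 33.5 RPKM and Dync1li1 at 20.6 RPKM in Kir2.1-OE, and their ratio in reads overlapped between the genotypes.

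**Figure D1:**
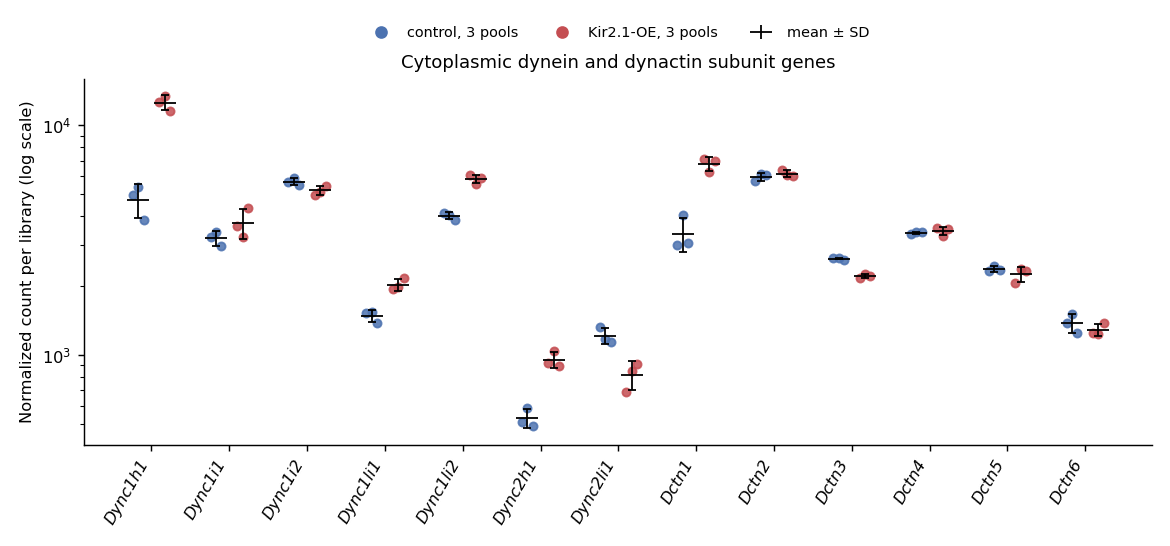
Normalized counts per library (log scale) of the cytoplasmic dynein and dynactin subunit genes, with each pool as a point and the mean ± SD of the 3 pools per genotype. Dync1h1, Dctn1 and Dync2h1 are higher in all 3 Kir2.1-OE pools, Dync2li1 and Dctn3 lower, and Dctn2, Dctn4, Dctn5 and Dctn6 overlap.

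Dynactin, which joins dynein to cargo and lengthens its runs, showed the same contrast within 1 complex. Dctn1 (chr6:83165920-83200117, plus strand) encodes p150Glued, the arm that binds dynein and microtubules, and had 7130, 6225 and 6961 normalized counts in Kir2.1-OE and 3001, 4038 and 3072 in controls. No control pool reached the lowest Kir2.1-OE pool, and the mean was 6772 ± 482 against 3370 ± 579 (SD, n = 3 each), or 41.7 against 20.8 RPKM. The fold change was 2.01, or 1.01 on the log2 scale (SE 0.12, adjusted p = 0.000235), and it ranged from 0.93 to 1.16 without each library in turn. With the length and GC offsets the fold change was 1.49 and Dctn1 was not called. Dctn2 (p50 dynamitin), which attaches that arm to the actin-like filament, had 6370, 6048 and 6019 normalized counts against 5687, 6130 and 6030, and the genotypes overlapped. Its log2 fold change was 0.05 (adjusted p = 0.589).

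Of the other dynactin members, Dctn3 (p24), the third shoulder protein, was lower by the adjusted p at a log2 fold change of -0.25 (adjusted p = 0.0076), with 2166 to 2244 normalized counts against 2598 to 2643. The pointed-end proteins Dctn4 (p62), Dctn5 (p25) and Dctn6 (p27) had log2 fold changes of 0.03, -0.08 and -0.10 and overlapped between genotypes. Reads of Dctn1 per read of Dctn2 in the same library were 1.12, 1.03 and 1.16 in Kir2.1-OE and 0.528, 0.659 and 0.510 in controls. This ratio does not depend on the scaling between libraries, and the genotypes did not overlap. The ratio of the fitted fold changes was 1.94, and 1.29 with the offsets. The 6 dynactin subunits whose names lie outside the rule (the actin-related proteins Actr1a, Actr1b and Actr10 and the capping proteins Capza1, Capza2 and Capzb) had log2 fold changes from -0.41 (Capza1) to -0.03 (Actr1a). For 3 of them the decrease had an adjusted p under 0.05, at a fold below the limit, where 23.5% of all genes were lower by the adjusted p. The median log2 fold change of the 6 was -0.25, and -0.17 with the offsets, when Capzb turned positive (0.075).

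The light chains were the group in which most members were lower. Of 9 genes, 2 were called lower and 5 had an adjusted p under 0.05 in that direction, against 5.08% and 23.5% of all genes, and the group's median log2 fold change was -0.31. Once corrected by these offsets, 1 of the 9 was called lower and the median was -0.15. The LC8 chains Dynll1 and Dynll2, small dimers that serve dynein, myosin V and many other proteins, differed from each other. Dynll1 (chr5:115297110-115300999, minus strand) had 5933, 6911 and 7582 normalized counts in Kir2.1-OE and 9377, 8925 and 9231 in controls, for a log2 fold change of -0.43 (SE 0.09, adjusted p = 0.00412). Dynll2 (chr11:87979525-87987533, minus strand), the most abundant member per length at 250 RPKM in Kir2.1-OE and 237 RPKM in controls, had 22547, 24340 and 22859 normalized counts against 22619, 19668 and 23739. Dynll1 did not overlap between genotypes and Dynll2 did, with a log2 fold change of 0.08 (adjusted p = 0.475). Reads of Dynll1 per read of Dynll2 were 0.263, 0.284 and 0.332 in Kir2.1-OE and 0.415, 0.454 and 0.389 in controls.

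The roadblock chains, which bind the intermediate chains, were both lower at the adjusted p. Dynlrb2 (chr8:116504974-116515915, plus strand), whose expression elsewhere is tied to cilia and testis, had 35.9, 39.0 and 37.0 normalized counts in Kir2.1-OE and 85.3, 68.1 and 75.3 in controls. The highest Kir2.1-OE value was below the lowest control value, and the fold change was 0.491, or -1.03 on the log2 scale (SE 0.22, adjusted p = 0.0043). Dynlrb1, the broadly expressed copy, had 4747, 5031 and 5137 normalized counts against 5898, 6088 and 6510, a log2 fold change of -0.31 (adjusted p = 0.00556). Dynlrb1 stood at 168 RPKM in Kir2.1-OE and Dynlrb2 at 1.88 RPKM, so Dynlrb2 made up a small part of the roadblock transcripts.

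The Tctex chains bind dynein and some cargoes, rhodopsin among them. Dynlt1c (chr17:6601671-6609774, plus strand) had 1748, 1911 and 1982 normalized counts in Kir2.1-OE against 3411, 2994 and 3210 in controls, with no overlap and a log2 fold change of -0.77 (SE 0.08, adjusted p = 0.000166). Dynlt1b had 1676, 1810 and 1881 normalized counts against 2926, 2204 and 2665, a log2 fold change of -0.54 (adjusted p = 0.00239). Dynlt1a had 491, 444 and 512 normalized counts against 575, 547 and 494, and Dynlt1f 388, 442 and 584 against 630, 512 and 577, and both overlapped between genotypes. These 4 genes lie near each other on chromosome 17 and are close copies, and between 85.3% (Dynlt1a) and 97.0% (Dynlt1c) of the 31-base words of their longest transcripts also occur in other genes, so the division of reads among them is uncertain. Their summed normalized counts were 4303, 4606 and 4959 in Kir2.1-OE and 7542, 6257 and 6946 in controls, without overlap, and the ratio of the means was 0.669. Dynlt3, a related chain on the X chromosome with its own sequence, had 5513, 5600 and 5999 against 6403, 6071 and 6681, a log2 fold change of -0.16 that missed the threshold (adjusted p = 0.0835).

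**Figure D2:**
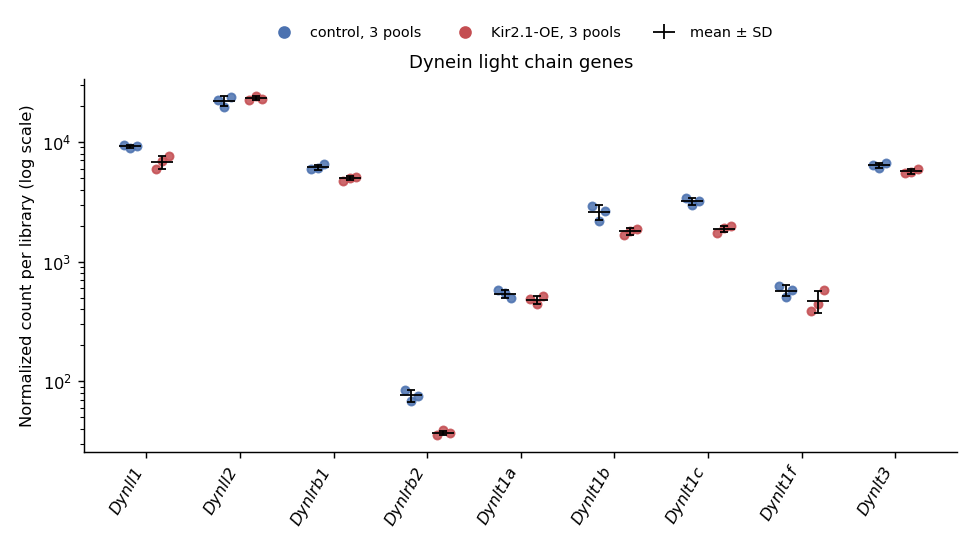
Normalized counts per library (log scale) of the 9 dynein light chain genes, with each pool as a point and the mean ± SD of the 3 pools per genotype. Dynlrb2, Dynlt1b and Dynlt1c are lower in all 3 Kir2.1-OE pools, whereas Dynll2 overlaps between genotypes.

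Within a library the reads of Dync1h1 per read of Dynll1 were 2.13, 1.94 and 1.52 in Kir2.1-OE and 0.530, 0.601 and 0.419 in controls. The ratio was higher in every Kir2.1-OE pool than in any control, and its mean was 3.61 times as large. These transcripts differ in length (14342 and 2242 nt), and the ratio of their fitted fold changes was 3.57 without and 1.62 with the length and GC offsets. Summed over genes, the light chains had 43079 to 46574 normalized counts in Kir2.1-OE and 47076 to 53183 in controls, and the cytoplasmic dynein 1 core had 29182 to 29398 against 17569 to 20229. Neither sum overlapped between genotypes. Dync1h1 alone averaged 12524 against 4733, where the core sum averaged 29297 against 19111. In the light chain sum, Dynll2 alone averaged 23249 against 22009 and overlapped between genotypes. The counts in these sums are not divided by length, and no sum was taken with the offsets.

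In cytoplasmic dynein 2, the motor of retrograde intraflagellar transport, the 2 members differed in opposite directions. Dync2h1 (chr9:6928503-7184446, minus strand), its heavy chain, had 923, 1036 and 895 normalized counts in Kir2.1-OE and 512, 585 and 491 in controls, with no overlap and a fold change of 1.80 (log2 0.85, SE 0.10, adjusted p = 0.000262). Dync2li1, its light intermediate chain, had 686, 853 and 915 normalized counts against 1321, 1169 and 1139, a log2 fold change of -0.56 (adjusted p = 0.00311) at a fold just under the limit. The groups of both genes were separate. Reads of Dync2h1 per read of Dync2li1 were 1.35, 1.21 and 0.978 in Kir2.1-OE and 0.387, 0.5004 and 0.431 in controls, and the ratio of the fitted fold changes was 2.66, or 1.51 with the offsets. Among the 3 further dynein 2 genes, the intermediate chain Wdr60 was called higher (log2 0.63), and the intermediate chain Wdr34 (log2 -0.61) and the light chain Tctex1d2 (log2 -0.75) were called lower. With the offsets Wdr60 was still called (0.62), and Wdr34 (-0.50) and Tctex1d2 (-0.47) were not.

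The axonemal heavy chains were scarce in this tissue. Dnah8, the most abundant of them per length, stood at 0.565 RPKM in Kir2.1-OE and 0.397 RPKM in controls, against 23.2 and 8.80 RPKM for Dync1h1. Dnah8, an outer arm heavy chain known from sperm, had 398, 343 and 322 normalized counts in Kir2.1-OE and 258, 230 and 258 in controls, for a log2 fold change of 0.51 (adjusted p = 0.00908) under the fold limit. Its groups did not overlap.

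Dnah7b (chr1:46066315-46373546, plus strand), an inner arm heavy chain, had 87.2, 78.9 and 96.3 normalized counts in Kir2.1-OE and 45.1, 50.9 and 46.8 in controls, for a log2 fold change of 0.87 (SE 0.21, adjusted p = 0.00719). Its groups did not overlap, but 63.5% of its 31-base words occur in other genes, mostly in the near copy Dnah7c, so its reads are uncertain. Dnah11 (chr12:117877982-118199043, minus strand), an outer arm heavy chain of cilia, had 37.0, 49.0 and 26.4 normalized counts against 25.1, 8.18 and 18.3. Its highest control lay just below its lowest Kir2.1-OE value, and the log2 fold change was 1.13 (SE 0.42, adjusted p = 0.0489). The call on Dnah11 was lost without Kir2.1-OE replicate 1 (log2 1.13), without Kir2.1-OE replicate 2 (0.86), without control replicate 2 (0.79) and without control replicate 3 (1.19), and by the Wald test of DESeq2 (1.12). It was also lost with library size alone (adjusted p = 0.0501), upper quartile scaling (0.0634), no filter on low counts (0.0534) and the length and GC offsets (0.445).

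Dnah1 (chr14:31260375-31323896, minus strand), an inner arm heavy chain needed for sperm flagella, went the other way. It had 50.3, 69.0 and 74.1 normalized counts in Kir2.1-OE and 112, 121 and 85.5 in controls. The groups did not overlap, and the log2 fold change was -0.72 (SE 0.23, adjusted p = 0.0267). Leaving out Kir2.1-OE replicate 1 (log2 -0.58), control replicate 1 (-0.68) or control replicate 2 (-0.62) ended this call.

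Of the other axonemal heavy chains tested, Dnah2, of the inner arm, had 132, 140 and 114 normalized counts against 118, 81.8 and 96.7 (log2 0.38, adjusted p = 0.132), and its groups nearly separated but overlapped. Dnah17, an outer arm heavy chain of sperm, had 11.99 to 19.0 normalized counts against 2.04 to 9.99 (log2 1.11, adjusted p = 0.104), and Dnah9, of the outer arm of cilia, had 6.35 to 21.6 against 7.27 to 19.1 (log2 0.16, adjusted p = 0.813). Dnah5, Dnah6, Dnah7a, Dnah10 and the light chain Dnali1 had too few reads to be tested. Dnah5, an outer arm heavy chain of airway cilia, had 3, 13 and 4 estimated reads in Kir2.1-OE and 0, 1 and 0 in controls, and 13 of these reads came from 1 pool. With no filter on low counts it passed the test (adjusted p = 0.0209) and took the place of Dnah11 among the 5 members called higher. Dnah6 had 0 to 5 reads, Dnah10 0 to 3 and Dnali1 3 to 14 over the 6 libraries. Dnah7a had 1 read in 1 control and 0 in the other 5 libraries, where a count of 0 allows up to 3 reads per library.

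Among the axonemal intermediate and light chains 4 were tested, and 1 of them, Dnal4, was lower by the adjusted p at a fold under the limit. Dnaic1, an outer arm intermediate chain, had 77.0, 49.0 and 74.1 normalized counts in Kir2.1-OE and 46.2, 62.7 and 54.97 in controls (log2 0.28, adjusted p = 0.384). Dnaic2, its partner, had 111, 116 and 114 against 131, 134 and 139 (log2 -0.25, adjusted p = 0.209), with no overlap. Dnal1, a light chain bound to the outer arm motor domain, had 1234, 1263 and 1118 normalized counts against 1354, 1199 and 1261 (log2 -0.08, adjusted p = 0.46), and its groups overlapped. Dnal4, an outer arm light chain, had 1066, 1128 and 985 against 1402, 1411 and 1403, a log2 fold change of -0.41 (adjusted p = 0.00208). The controls of Dnal4 agreed within 10 normalized counts of each other, and all 3 Kir2.1-OE pools were below them.

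**Figure D3:**
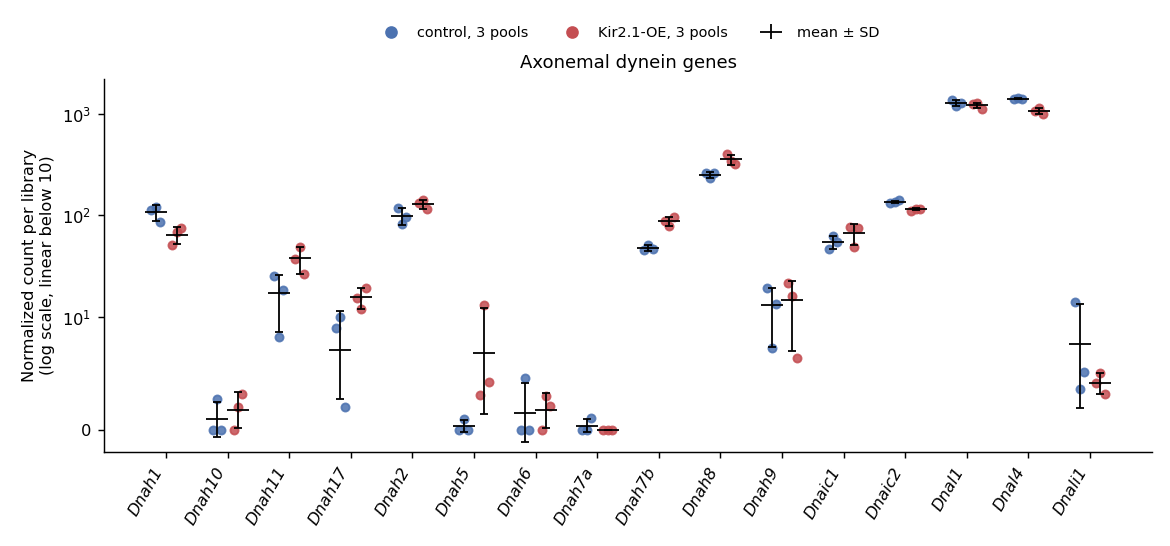
Normalized counts per library (log scale above 10, linear below) of the 16 axonemal dynein genes, with each pool as a point and the mean ± SD of the 3 pools per genotype. Most heavy chains lie under 200 counts while Dnal1 and Dnal4 lie near 1000, and Dnah1 is the heavy chain whose Kir2.1-OE pools all lie below the controls.

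The direction of a member went with the length of its transcript. Across the 33 members tested, Spearman's rho between log2 fold change and the length of the longest transcript was 0.677, and across all 15197 genes with a length it was 0.557. These are descriptions over genes, which share the same 6 libraries. Of the 886 genes longer than 8000 nt, 64.0% were called higher and 0.677% lower, with a median log2 fold change of 0.81. Among them are 9 members, of which 4 were called higher and 1, Dnah1, lower. Dync1h1, with 14342 nt, was higher than 86.2% of these long genes, Dync2h1 than 52.6% and Dnah7b than 53.8%. Dnah1, with 12872 nt, was higher than 0.451% of them, whereas Dync2h1 and Dnah7b sat at the middle of genes of their length. At the short end, genes up to 1000 nt had a median log2 fold change of -0.51, and 30.8% of them were called lower. Dynlrb2, with 527 nt, is 1 of 4 members in that class and the one called.

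**Figure D4:**
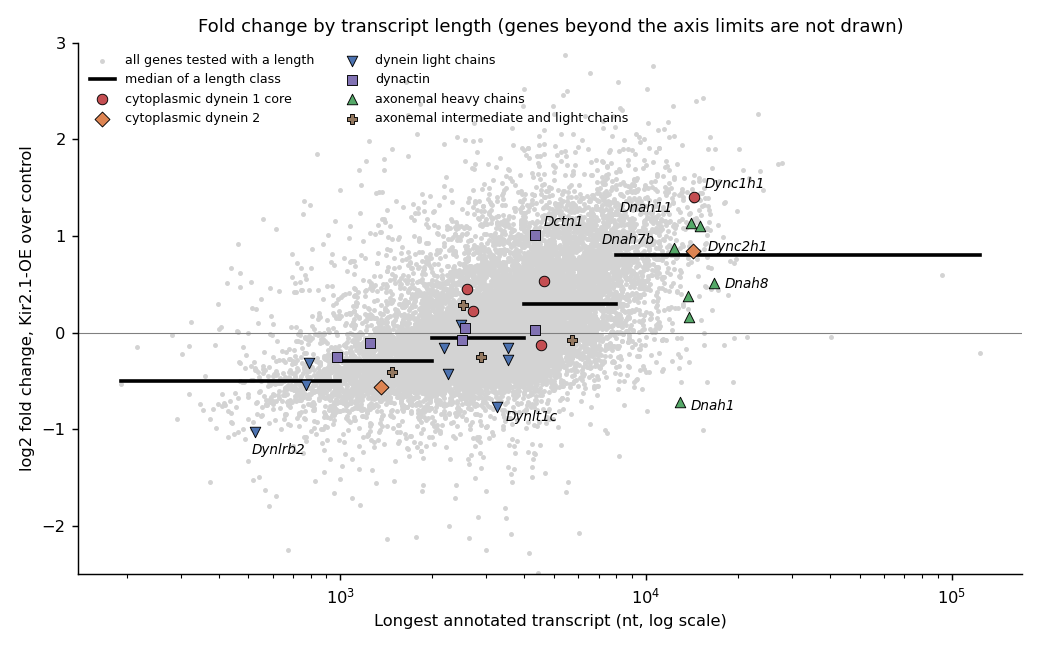
log2 fold change of Kir2.1-OE over control against the length of the longest annotated transcript (nt, log scale), with all genes in grey, the median of each length class as a bar and the members by role. The light chains lie under 4000 nt, and 8 of the 9 are below 0, while the heavy chains lie over 8000 nt and above 0, except Dnah1 at -0.72.

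Offsets for transcript length and GC content, fitted as a smooth trend in each library, left a rho of 0.058 among the members and changed which of them were called. With them 1 member was called higher, Dync1li1, where 7.21% of all genes were called higher, and 2 were called lower, Dnah1 and Dynlt1c, where 2.81% of all genes were called lower. Dync1h1 had a log2 fold change of 0.47 (adjusted p = 0.00452) and Dctn1 of 0.57 (adjusted p = 0.00399). Dync2h1 was at 0.39 (adjusted p = 0.0134), Dnah7b at 0.39 (adjusted p = 0.19), Dnah11 at 0.44 (adjusted p = 0.445) and Dynlrb2 at -0.45 (adjusted p = 0.14).

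Dync1li1 moved up to a log2 fold change of 0.60 (SE 0.07, adjusted p = 0.00126) with the offsets, and fell below the fold limit without Kir2.1-OE replicate 3 or control replicate 3, which left 0 members called higher. Dctn1 was called beside Dync1li1 without Kir2.1-OE replicate 2 or control replicate 2, which gave 2 members called higher. Dynlt1c stayed at -0.72 (SE 0.07, adjusted p = 0.000891) and Dnah1 went to -1.60 (SE 0.24, adjusted p = 0.0021), and both were called in each of the 6 fits that left out a library. The log2 fold changes of Dctn3, Dctn5, Dctn6, Dynlrb1 and Dynlt3 turned from negative to positive with the offsets and those of Dnah2, Dnah8 and Dnah9 from positive to negative. Dynlt1b went to -0.05 (adjusted p = 0.72), Dync2li1 to -0.20 (adjusted p = 0.154) and Dynll1 to -0.22 (adjusted p = 0.0654). The offsets took 3250 nt for Dynlt1c and 771 nt for its near copy Dynlt1b, of whose 31-base words 82.7% also occur in Dynlt1c. The offset values of Dynlt1c and Dynlt1b thus rest on these lengths and on an uncertain division of reads. Genotype and the trend with length run together in these 6 libraries and cannot be told apart, and the cause of the trend was not tested.

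**Figure D5:**
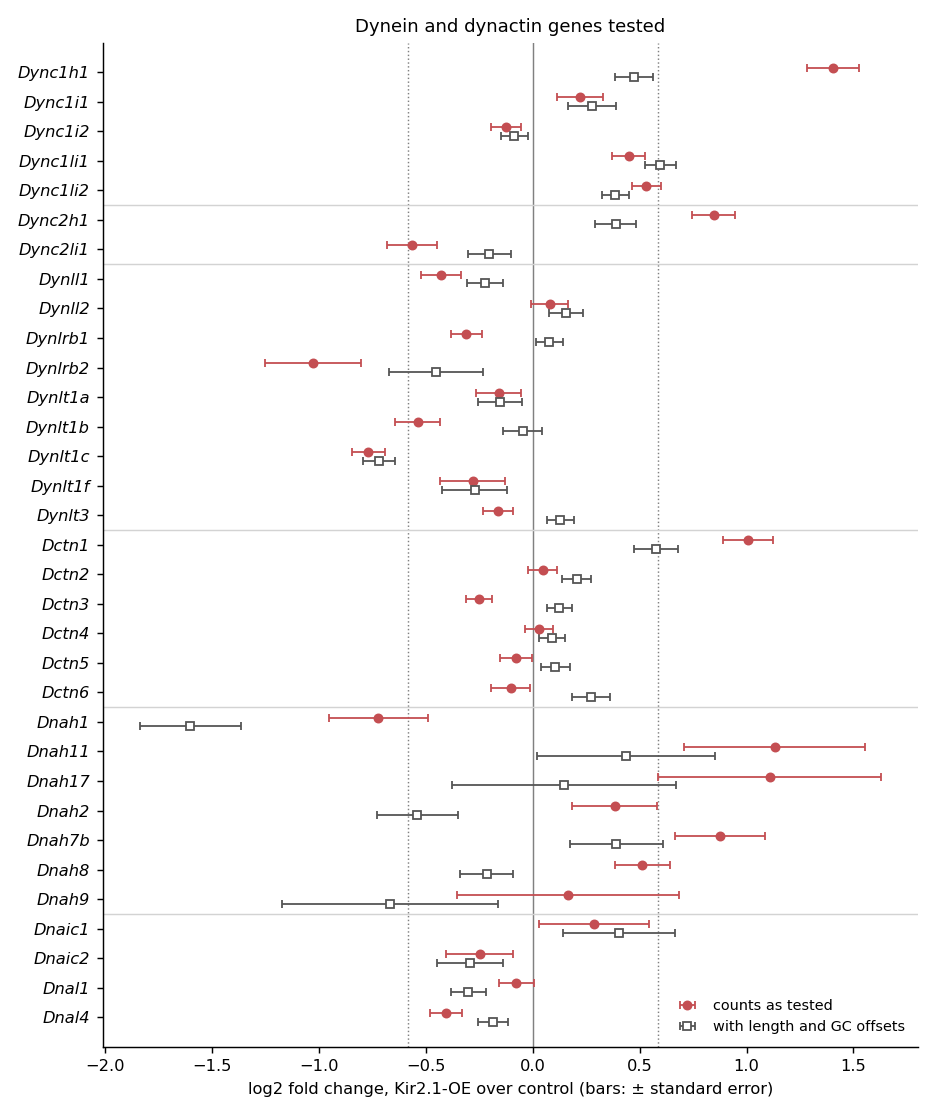
log2 fold change of Kir2.1-OE over control for the 33 members tested, with bars of ± 1 standard error, from the counts as tested (filled circles) and with length and GC offsets (open squares); dotted lines mark a fold change of 1.5 in either direction. The heavy chains move left with the offsets and the light chains move right, while Dnah1 moves away from 0 and Dynlt1c stays.

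The proteins that switch dynein on and load it were described from a list of 20 regulators and adaptors. All 20 were tested, 11 were called higher, where 15.5% of all genes were, the other 9 were not called, and the median log2 fold change was 0.59. The highest was Mapk8ip3 (JIP3), an adaptor of axonal transport, at 1.44, and the lowest was Rilp, a lysosomal adaptor, at -0.10. With the offsets 4 of the 20 were called higher, where 7.21% of all genes were, and the median was 0.31. The median transcript of this list is 5373 nt, against 3382 nt for all genes tested.

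The list of axonemal assembly factors, docking proteins and other motile cilium genes had 21 of 27 genes tested, with a median log2 fold change of 0.11. Of these 21, 1 was called higher and 1 lower, where 15.5% and 5.08% of all genes tested were. Its highest was Hydin, a central pair protein, at 1.01 and its lowest was Ccdc103, a dynein attachment factor, at -0.93. Pih1d3, which helps to assemble axonemal dyneins, was at 0 in every library. The gene called higher was Rfx2, an RFX factor of ciliated cells, at 0.66. With the offsets neither Rfx2 (0.40, adjusted p = 0.0633) nor Ccdc103 (-0.69, adjusted p = 0.0717) was called, and Ccdc39, a ruler protein of the axoneme, was called higher (1.06, adjusted p = 0.0419). Ccdc39 was the only gene of the list called with the offsets, where 7.21% of all genes were called higher and 2.81% lower. Rfx2 and Ccdc39 are named because they were the ones called, after their values were seen.

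Under another scaling, by the upper quartile, the division between higher and lower changed. Of all genes called, 75.2% were higher under the TMM scaling used throughout and 57.9% under the upper quartile, and the median over all genes then stood at -0.08. The members called were then 4 higher and 5 lower of 33 tested, with Dnah11 lost and Dync2li1 and Dynlt1b gained. Of all 15303 genes tested, 1897 were then called higher and 1378 lower, against 2365 and 778 under TMM, so lower calls rose in general. The small positive differences of Dctn2 (-0.042), Dctn4 (-0.061) and Dynll2 (-0.011) changed sign under it, while Dync1h1, Dctn1, Dync2h1 and Dnah7b stayed higher and Dynlrb2, Dynlt1c and Dnah1 stayed lower.

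Some members share exonic sequence with a gene on the other strand, and the strand setting of the counting is not given, so reads in the shared stretch cannot be assigned with certainty. The largest such stretches covered 13.6% of the exons of Dynlt1a (Tmem181a), 11.8% of Dctn6 (Gm26768) and 7.08% of Dync1li2 (K230015D01Rik). Of the members called, Dnah11 shared 4.44% with Cdca7l, Dnah1 4.22% with Gm35823 and Dync1h1 2.57% with Gm35558.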

How the data were processed

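Poly(A) libraries were made from 3 Kir2.1-OE and 3 control pools of cochlear tissue. The authors sequenced them, and the reads were mapped to mm10 with the nf-core RNA pipeline and quantified with Salmon. The authors deposited the resulting expected counts per gene, which are estimated counts not divided by length or depth. Tool versions, annotation, strand setting and removal of duplicate reads are not given in the sources used here. Nothing states that the pools of a group came from separate litters, so p-values measure the spread between these pools. The file of control replicate 1 carries the number 4 in its header, and the number of the label was used.

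The counts were rounded, scaled by TMM and filtered by filterByExpr, which kept 15303 of 24411 genes. All were fitted by edgeR 4.0.16 (R 4.3.3) with its quasi-likelihood test, p-values were adjusted by Benjamini and Hochberg's method, and the fit was tested on simulated data. A gene was called at an adjusted p under 0.05 and a fold change above 1.5. The stricter test was glmTreat against a log2 fold change of 0.6. Standard errors are the log2 fold change divided by the root of the test's F. For 1 gene alone, permuting the 6 pools exactly gives no p below 0.1. No 2 libraries of a group were as alike as sampling noise allows (chi-square per degree of freedom 16.2 to 32.3).

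Symbols were matched to the GENCODE annotation of mm10, 23376 by symbol and 669 by an older symbol, and 366 were not matched. Length and GC content came from the longest transcript, and the offsets from a loess surface with a span of 0.4. Promoters came from RefSeq GRCm38.p6 by symbol, and protein sequences were not used here. Alternatives used other scalings and filters, limma-voom (limma 3.58.1), DESeq2 1.42.0, the replicate number as a block and each library left out. Values in every library were given for called members, heavy chains of cytoplasmic dynein, Dctn1, light chain pairs and axonemal members averaging at least 20 normalized counts; other genes come from the lists, by their extremes. The members and lists were chosen with earlier results of these data known. Figures were drawn with matplotlib 3.10.9.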

Additional observations from a re-analysis of the deposited data

How the results depend on the processing

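The counts of 5 members called higher and 3 called lower stayed within 1.5 times under DESeq2 size factors, library size alone, no filter on low counts, at least 10 counts in every library, DESeq2's Wald test, limma-voom and unrounded counts (the last chosen after seeing the data), although with no filter Dnah5 replaced Dnah11. Without each library in turn, 4 to 5 members were called higher and 2 to 5 lower, and 5 were lower without Kir2.1-OE replicate 3, when Dync2li1 and Dynlt1b were added. Upper quartile scaling gave 5 lower. glmTreat against 0.6 gave 2 higher and 0 lower, and no fold threshold gave 8 higher and 9 lower. Length and GC offsets gave 1 higher and 2 lower, with and without the replicate block. Leaving out each library with the offsets, chosen after seeing the data, gave 0 to 2 higher and 2 to 3 lower.

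The pools share replicate numbers across genotypes, and same-numbered pools deviated from their group means with correlations of -0.107, -0.232 and -0.213. With 3 pools per genotype, each set against the mean of its own group, these values cannot decide whether the numbers pair the pools. With the replicate block 4 members were called higher and 2 lower, since Dnah11 and Dnah1 were lost, and in all genes 2220 were higher and 718 lower. No pool correlated best with its own number.

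Signs turned with the offsets for Dctn3 (0.12), Dctn5 (0.11, and 0.10 with the replicate block), Dctn6 (0.27, and 0.28), Dynlrb1 (0.078, and 0.079), Dynlt3 (0.13), Dnah2 (-0.54, and -0.53), Dnah8 (-0.22, and -0.21) and Dnah9 (-0.67, and -0.68), under upper quartile scaling for Dctn2 (-0.042), Dctn4 (-0.061) and Dynll2 (-0.011), and without 1 library for Dctn4 (range -0.00345 to 0.0386, below 0 without Kir2.1-OE replicate 1 or replicate 3, at -0.00198) and Dnah9 (range -0.228 to 0.525, below 0 without Kir2.1-OE replicate 1 or, at -0.138, control replicate 2). The cause was not tested. Over all genes, the calls fell from 2365 higher and 778 lower to 1104 and 430 with the offsets, to 832 and 57 in the test against 0.6, and rose to 4184 and 3590 with no fold threshold, while upper quartile scaling gave 1897 and 1378 and limma-voom 2362 and 785. Without each library, 1878 to 2527 were higher and 536 to 1074 lower. Depth limits the axonemal heavy chains, of which 4 were not tested.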
